A study of Mus musculus with 2 samples.

Results

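The genes described here encode the proteins of the cytosolic ribosome. They were taken by name: every probe set of the array whose platform annotation gave a single gene symbol made of Rpl or Rps, a number and at most a short copy suffix. The rule found 103 of 45101 probe sets, for 48 of 18194 genes, of which 26 encode proteins of the large subunit (48 probe sets) and 22 encode proteins of the small subunit (55 probe sets). All RNA came from a single mouse embryonic stem (ES) cell line, named ESSP9, with the genotype Del1.3MbWBS. The label stands for a chromosome from which 1.3 Mb were deleted in the region whose human counterpart is lost in Williams-Beuren syndrome (WBS). Both arrays belong to that 1 group, labelled as biological replicates 1 and 2, and no line without the deletion was analysed here, so no value below compares genotypes. The cells were grown with LIF and 20% serum replacement on feeder cells, and the labels do not say how many copies the deletion removed, whether the line is a single clone, or whether the biological replicates were separate cultures. The spread between the arrays may therefore be partly technical. None of the 48 genes lies between Gtf2i and Fkbp6, the outer genes of the WBS segment, in the order of the reference gene table, which places 38 genes there.

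Ribosomal proteins fold onto ribosomal RNA to form the small subunit, which reads the mRNA, and the large subunit, which joins the amino acids. Most are needed in fixed proportion, and their mRNAs are among the commonest in dividing cells. Many of these mRNAs begin with a C followed by a run of pyrimidines, the terminal oligopyrimidine tract, through which their translation is tied to growth signals. The genes have also left many processed pseudogenes, copies of the mRNA inserted elsewhere in the genome, so a short probe can match several places at the same time.

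Values are the authors' RMA values on the log2 scale, 1 per probe set and array, and each mean ± SD rests on n = 2 arrays. A probe set or gene was called above background when its value on each array and its mean exceeded the 95th percentile over 38 genes for olfactory receptors, which ES cells are not expected to transcribe. That threshold was 5.60 on replicate 1, 5.58 on replicate 2 and 5.59 for the mean. The probe set with the highest mean stood for a gene. Probes differ in affinity, so a value is read against the threshold and against the same probe set on the other array, and the order of values between genes is not an order of transcript abundance. Without a second group there is no test, and the counts and differences are descriptions.

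Of the 48 genes, 46 were above background, 25 of 26 for the large subunit and 21 of 22 for the small subunit. The 2 others, Rpl3l and Rps16, had 1 single-symbol probe set each. Rps16 was also named beside other symbols in entries at 13.99 and 14.57. Over all genes the share above background was 68.4% (12437 of 18194). The median over the ribosomal protein genes was 14.06 on replicate 1 and 14.08 on replicate 2, and the median over all genes was 7.18 and 7.19. Of the 103 probe sets, 93 were above background, against 61.8% of the 34958 probe sets with a single symbol. Their median was 13.84 with quartiles of 9.74 and 14.27, against a median of 6.46 over all probe sets with a single symbol. The brightest ribosomal protein value was 14.66 on replicate 1 and 14.70 on replicate 2, where the arrays' own highest values were 15.09 and 15.08.

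**Figure D1:**
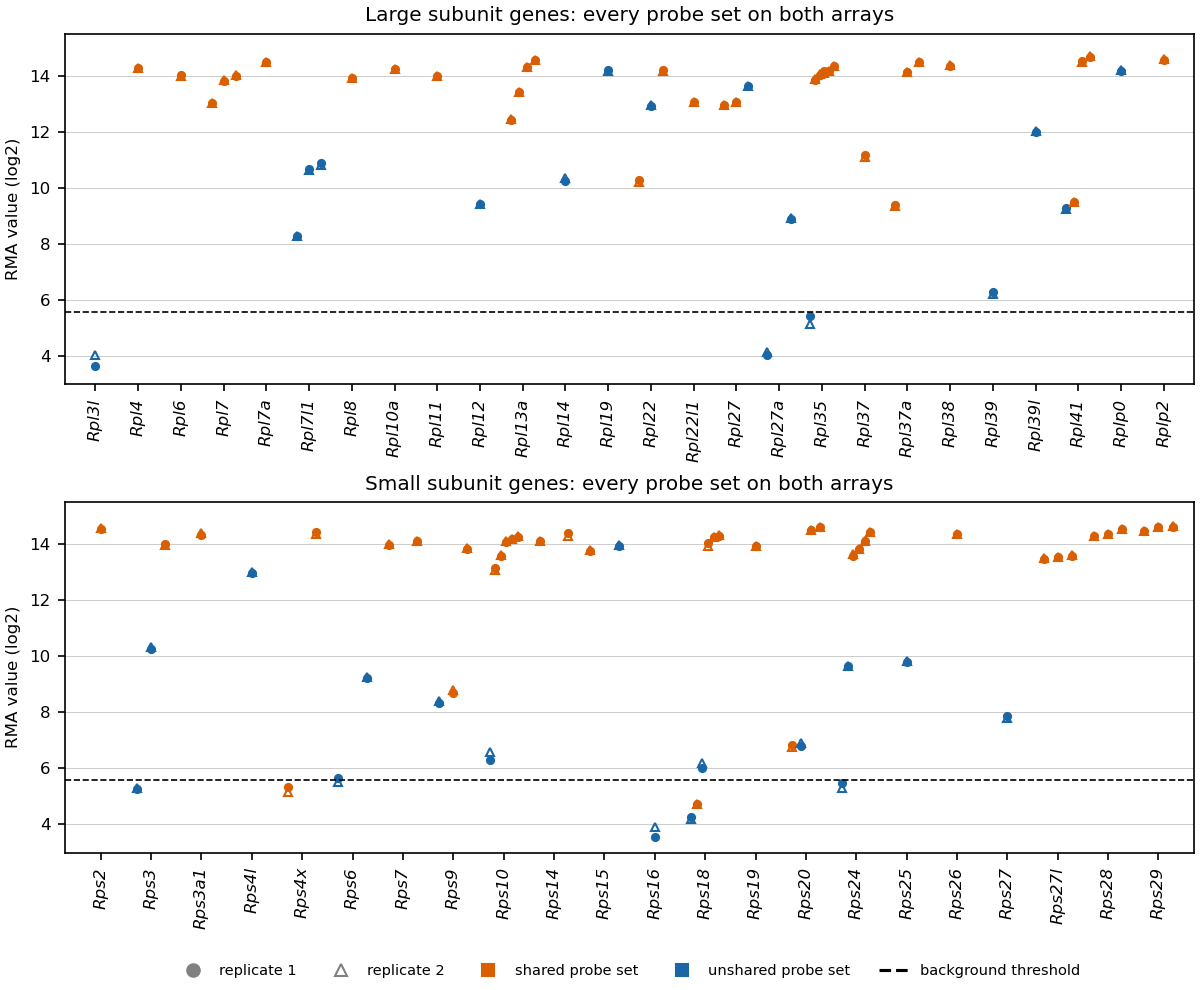
RMA values (log2, vertical axis) of all 103 ribosomal protein probe sets by gene, with large subunit genes above and small subunit genes below; circles are replicate 1, triangles are replicate 2, orange marks probe sets that the array's maker labelled as shared between transcripts or genes and blue the unshared ones. Most genes have a probe set above 13, and circles and triangles nearly coincide. The 2 genes wholly below the dashed background threshold, Rpl3l and Rps16, have 1 plotted probe set each. Rps16 was also named in brighter entries with several symbols, which are not plotted.

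The members' transcription starts were read from the RefSeq promoter table (build GRCm38.p6), which held 50 entries for 42 of the 48 genes, 7 of them with several starts. A C at the annotated start followed by at least 4 further pyrimidines stood in 8 of the 50 entries (16%), against 2.51% of all 32851 entries and 2.21% of the entries of protein-coding genes. The other 42 entries held none there. The 8 starts are printed because they show the tract described above in full. Each line gives the 15 bases before and the 15 bases from the start, 5′ to 3′ on the gene's strand, with the tract in capitals.
Rpl14 (chr9:120571502-120571531, plus strand): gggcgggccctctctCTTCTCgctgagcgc
Rpl35 (chr2:39005117-39005146, minus strand): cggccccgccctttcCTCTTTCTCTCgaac
Rpl38 (chr11:114668565-114668594, plus strand): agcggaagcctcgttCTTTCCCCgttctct
Rplp2 (chr7:141447636-141447665, plus strand): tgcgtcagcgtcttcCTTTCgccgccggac
Rps6 (chr4:86857353-86857382, minus strand): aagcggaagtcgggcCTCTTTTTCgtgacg
Rps10 (chr17:27635230-27635259, minus strand): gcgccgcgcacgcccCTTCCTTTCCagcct
Rps18 (chr17:33955651-33955680, minus strand): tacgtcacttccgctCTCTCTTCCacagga
Rps27 (chr3:90213634-90213663, minus strand): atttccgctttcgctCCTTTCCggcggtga
The tracts of these 8 genes were 5 to 11 bases long. All 8 genes were above background, with a median of 14.29 and a range from 7.84 to 14.58. Of the 34 genes with a promoter entry but no such tract at the annotated start, 32 were above background, with a median of 14 and a range from 3.72 to 14.68.

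Paralogs, later copies of ribosomal protein genes, are printed beside them to show how their starts read. None of the entries for the 5 paralogs with a promoter entry held a tract at the start, and neither did most entries of the other members. For Rpl3l and Rps27l, which have several entries, 1 is shown.
Rpl3l (chr17:24727811-24727840, plus strand): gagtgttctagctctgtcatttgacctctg
Rpl7l1 (chr17:46782642-46782671, minus strand): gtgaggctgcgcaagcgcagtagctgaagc
Rpl22l1 (chr3:28805493-28805522, plus strand): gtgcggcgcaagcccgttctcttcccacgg
Rpl39l (chr16:10170213-10170242, plus strand): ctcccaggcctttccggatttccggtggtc
Rps27l (chr9:66946071-66946100, plus strand): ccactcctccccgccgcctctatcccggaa
Annotated starts are often a few bases from those used in a cell. With a tract allowed to begin within 5 bases of the annotated start, 21 of the 50 member entries (42%) held one, and so did 18.3% of all entries. The printed windows of the paralogs Rpl22l1 and Rps27l held one under this wider rule. In the whole window, from 250 bases before to 50 after the start and on either strand, CGGAAG, the core bound by ETS factors such as GABP, was present in 30 of 50 member entries (60%), against 16.9% of all entries and 21.1% of those of protein-coding genes. AAGATGGC, the core of the YY1 motif, was present in 4 of 50 (8%), against 2.75% of all entries. GGGCGG, the GC box bound by Sp1, was present in 26 of 50 (52%), against 35.7% of all entries and 46.2% of those of protein-coding genes. TATAAA, the TATA box, was present in 6 of 50 (12%), against 13.6% of all entries. These matches describe letters in the reference, and entries of the same gene overlap where their starts are close.

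**Figure D2:**
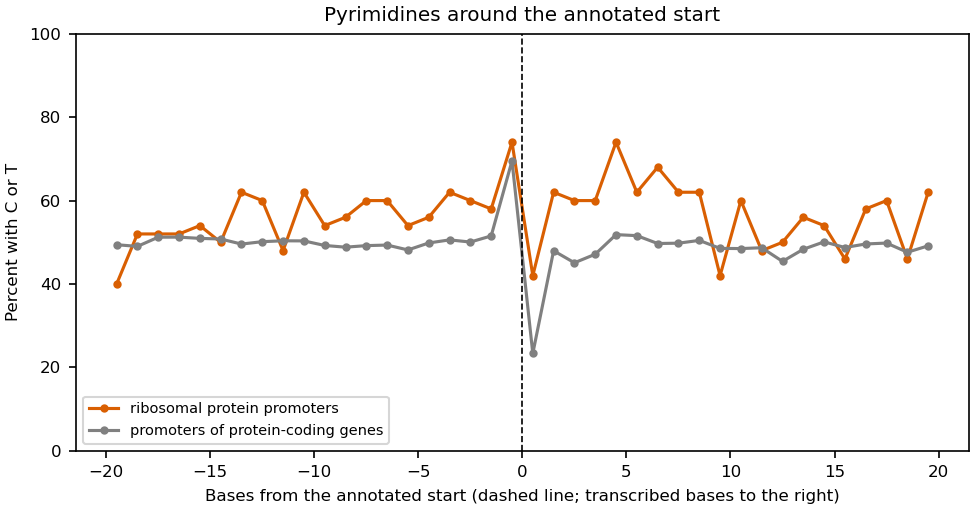
Percent of promoter entries with C or T at each base (vertical axis) from 20 bases before to 20 bases after the annotated start (horizontal axis), for the 50 ribosomal protein entries (orange) and the 21262 entries of protein-coding genes (grey). At the first transcribed base 42% of the ribosomal protein entries and 23.4% of the others had a pyrimidine, and at the fifth base 74% and 51.8%.

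The stalk of the large subunit, an arm of acidic proteins that recruits the elongation factors, was represented by Rplp0 and Rplp2. Rplp0, the base of the stalk, was at 14.17 on replicate 1 and 14.19 on replicate 2 on 1419441_at, an unshared probe set. Rplp2, which forms the tip together with Rplp1, was at 14.57 and 14.60 on 1415879_a_at. Both arrays gave nearly the same value for each, 0.026 and 0.034 log2 units apart. Rplp1 was listed only together with other symbols and is not among the 48.

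Rpl11, which with Rpl5 joins a small ribosomal RNA to the large subunit and when free binds the p53 inhibitor Mdm2, was at 13.98 on replicate 1 and 13.99 on replicate 2. Rpl4, which lines the tunnel through which the new chain leaves, was at 14.27 and 14.29. Rpl39, a small protein of the same tunnel, was at 6.30 and 6.23 on its only single-symbol probe set, 1423032_at. Rpl39 was thus above the threshold on both arrays, by less than 1 log2 unit. Rpl3 and Rpl10, which reach towards the catalytic centre, had no probe set of their own, and neither did Rpl17 or Rpl5.

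In the small subunit, Rps2 and Rps3, which shape the channel where mRNA enters, were at 14.53 and 14.56 for Rps2 and at 13.99 and 13.99 for Rps3. Rps14, which sits on the platform near the decoding site, was at 14.39 on replicate 1 and 14.31 on replicate 2. Rps19, a gene mutated in Diamond-Blackfan anaemia, was at 13.95 and 13.94. Rps6, whose protein is phosphorylated by the S6 kinases downstream of mTOR, was at 9.23 and 9.27 on 1416142_at, its brighter single-symbol probe set. Rps27a, made as a fusion with ubiquitin, had no single-symbol probe set.

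Several other members have roles of their own. Rpl38, which in the mouse embryo is needed for translation of a subset of Hox mRNAs, was at 14.37 ± 0.0046. Rps25, used by some viral internal ribosome entry sites, was at 9.82 ± 0.034 on 1430978_at. Rpl13a, which can leave the ribosome and silence inflammatory mRNAs, was at 14.56 ± 0.023 on its brightest probe set. Rpl41, the shortest ribosomal protein, was at 14.68 ± 0.026, and Rps26, which contacts mRNA at the exit channel, was at 14.37 ± 0.0061. All 5 lay above background on both arrays.

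The paralogs had means from 3.85 to 13.59. Of 7 listed copies 6 had a single-symbol probe set, and 5 of the 6 were above background. Over all genes the share was 68.4%, and 6 genes are too few to be set apart from it. Rpl3l, a copy of Rpl3 used in muscle, was at 3.66 on replicate 1 and 4.05 on replicate 2 on 1449398_at, below the threshold on both arrays. Rpl39l, a copy of Rpl39 best known from the testis, was at 12.01 and 12.03 on 1423327_at, an unshared probe set, while its parent Rpl39 was at 6.30 and 6.23 on 1423032_at; these probe sets differ in sequence and the values do not rank the transcripts. Rpl22l1, a copy of Rpl22, was at 13.06 on both arrays, and Rpl22 was at 14.19 and 14.15 on its brightest probe set, 1453118_s_at.

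Rps27l, a copy of Rps27 that p53 induces, gave 13.48 and 13.51, 13.55 and 13.54, and 13.57 and 13.61 on its 3 probe sets, all marked as shared. Its parent Rps27 was at 7.86 and 7.81 on 1460699_at, and a probe set that lists Rps27 beside another symbol had a mean of 13.80. The values of parent and copy do not rank the transcripts. Rps4l, a copy of Rps4x, was at 12.98 and 12.99 on 1452730_at, and Rps4x itself was at 14.42 and 14.38 on 1416276_a_at. Rpl7l1, a more distant relative of Rpl7, was at 8.28 and 8.28, 10.69 and 10.63, and 10.90 and 10.82 on its 3 probe sets, none of them marked as shared. Apart from Rpl3l, each paralog was thus above the threshold on every one of its probe sets.

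How a gene reads depended on the probe set. In 23 of the 48 genes there were several probe sets, and in 7 of these (30.4%) some were above background and others were not, against 43.5% of all 9012 genes with several. The range between the lowest and highest probe set mean exceeded 1 log2 unit in 15 of the 23 genes (65.2%), against 74.8% of all genes with several. Its median was 3.93 log2 units in the ribosomal protein genes and 2.18 over all genes. The 8 genes with a range of 1 log2 unit or less were Rpl7, Rpl27, Rps7, Rps14, Rps15, Rps27l, Rps28 and Rps29; the narrowest was that of Rps27l, 0.098 log2 units, and the probe sets of Rps29 lay between 14.47 and 14.63.

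The widest range was in Rps18, which lies at the head of the small subunit. Its 6 probe sets had means of 4.23, 4.75, 6.10, 13.99, 14.26 and 14.31, and the first of these (1421838_at) gave 4.28 on replicate 1 and 4.18 on replicate 2. Rps24, another gene of Diamond-Blackfan anaemia, had 6 probe sets with means of 5.40, 9.65, 13.63, 13.83, 14.10 and 14.44. Rpl35, at the mouth of the exit tunnel, had 1 probe set at 5.30 and 5 between 13.88 and 14.36. Rps10 also had 6, with means of 6.45, 13.11, 13.60, 14.10, 14.19 and 14.28, all above background. In each of these 4 genes, the ones with the most probe sets, the dimmest probe set was an unshared one and the brightest a shared one, and both arrays gave the same division. Other genes did not follow that order. The second widest range was that of Rps4x, whose 2 probe sets, at 5.23 and 14.40, are both shared. In Rps20 the dimmest, at 6.79, is also a shared one, and in Rpl37a all 3, from 9.38 to 14.50, are shared.

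The 10 probe sets not above background belonged to 9 genes and had means from 3.72 to 5.58. They were 1455835_at for Rps16 (3.54 and 3.90), 1449398_at for Rpl3l, 1419799_at for Rpl27a (4.02 and 4.15), 1421838_at and 1450390_x_at for Rps18, 1420303_x_at for Rps4x (5.32 and 5.15), 1447563_at for Rps3 (5.27 and 5.31), 1454833_at for Rpl35 (5.44 and 5.16), 1436500_at for Rps24 (5.49 and 5.31) and 1453466_at for Rps6 (5.66 and 5.50). The last of these, Rps6, exceeded the threshold on replicate 1 alone. In 7 of the 9 genes another probe set was above background; Rpl3l and Rps16 had a single probe set each.

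The maker's suffixes _a_at, _s_at and _x_at mark probe sets that match several transcripts or genes, with _a_at used for transcripts of the same gene. Such shared probe sets numbered 71 of the 103 and had a median of 14.10, and 69 of them were above background. The 32 unshared ones had a median of 9.08, with means from 3.72 to 14.19, and 24 of them were above background. Over all single-symbol probe sets the medians were 7.91 for 7953 shared ones, of which 76.1% were above background, and 6.13 for 27005 unshared ones, of which 57.7% were. In 23 of the 48 genes all probe sets were shared, so that for these genes no value is free of possible signal from another transcript, which may be of the same gene. Some of them, such as Rpl4 and Rps26, had only _a_at probe sets, a suffix that does not itself mark a match to another gene. How much of the shared probe sets' signal came from pseudogenes or other copies was not tested.

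**Figure D3:**
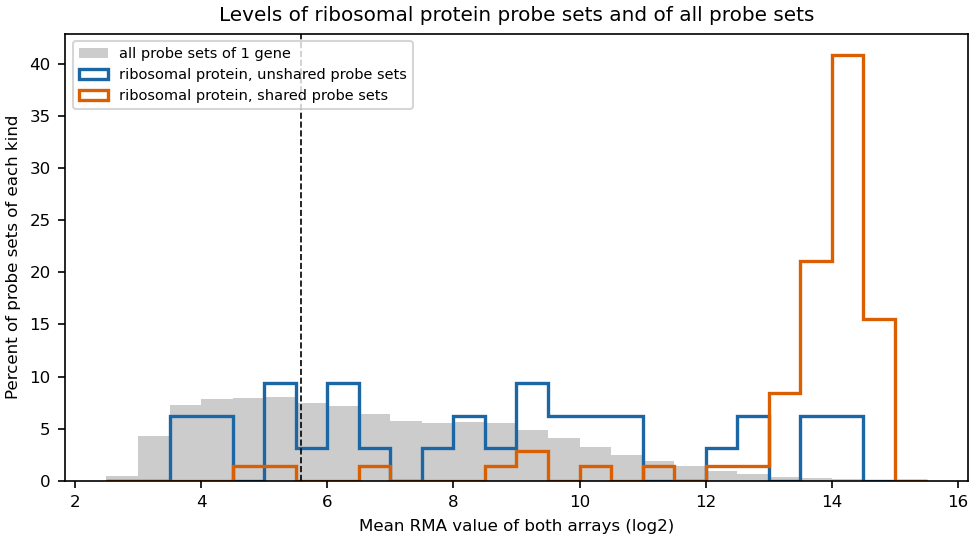
Percent of probe sets (vertical axis) in steps of 0.5 of the mean RMA value (log2, horizontal axis) for the 71 shared (orange) and 32 unshared (blue) ribosomal protein probe sets and for all 34958 probe sets with a single symbol (grey); the dashed line is the background threshold. The shared ribosomal protein probe sets gather around their median of 14.10 and the unshared ones spread from 3.72 to 14.19.

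At the top of the scale, 65 of the 103 probe sets and 35 of the 48 genes had a mean of 13 or more, a mark chosen after the values were seen and close to the 99th percentile of all probe sets (12.998). Above that percentile lay 451 probe sets, and the 65 were among them. The 35 genes were 18 of 26 of the large subunit and 17 of 22 of the small subunit. Of all 34958 probe sets with a single symbol, 287 had a mean of 13 or more, the 65 among them. The matching share of all genes was not counted.

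A further 110 probe sets listed a ribosomal protein gene together with other symbols, such as numbered pseudogenes and predicted genes. The rule leaves them out, and they cannot be assigned to a gene. Of these 110, 104 were above background, with a median of 14.04, and 78 lay above the 99th percentile. Of all probe sets with a single symbol 61.8% were above background, with a median of 6.46. The matching share of all 932 probe sets with several symbols was not counted. Members and these entries together made up 143 of the 451 probe sets there (31.7%).

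The 13 member genes below 13 divided by these entries. Rpl12, Rpl14, Rpl27a, Rpl37, Rpl39, Rps6, Rps16, Rps25 and Rps27 were each also named in an entry with several symbols at 13 or more. Rps16, at 3.54 and 3.90 on its own probe set, was named beside other symbols, a pseudogene among them, in entries at 13.99 and 14.57. For Rpl39 the corresponding entry was at 14.59, for Rps27 at 13.80 and for Rps25 at 13.81. Rps6 was named in 9 such entries with means from 5.10 to 14.53, 8 of them above background, and Rpl14, at 10.31 on its own probe set, in 5 from 14.04 to 14.58. The other 4 of the 13, Rpl3l, Rpl7l1, Rpl39l and Rps4l, are paralogs, and none of them was named in an entry with several symbols. Rps4l, with a mean of 12.99, lay just under the mark of 13, which was chosen after the values were seen, and the paralogs Rpl22l1 and Rps27l, with means of 13.06 and 13.59, lay above it.

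The set of the usual ribosomal proteins holds 79 genes, each counted without its later copies. Of these, 42 had a single-symbol probe set that met the rule, and 27 were found only in entries with several symbols. The 48 genes therefore describe only part of the ribosome.

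Differences between the arrays were small. Over the 46 genes above background on at least 1 array, replicate 2 minus replicate 1 had a median of 0.0079 log2 units and lay between -0.10 and 0.094. No gene of the 46 and none of the 94 probe sets compared differed by 1.5-fold or more, where 0.0783% of 12764 genes and 0.0985% of 22342 probe sets did, so a count of 0 is near the background. The SD of the difference was 0.038 over the 46 genes and 0.114 over all genes compared. The spread was narrower at high values. For probe sets with means of 13 or more, the SD was 0.030 over the 65 ribosomal protein probe sets and 0.034 over all 287 with a single symbol, and for those not above background it was 0.231 over 10 and 0.184 over 13338. The median difference was 0.0065 for the large subunit and 0.014 for the small subunit, over all their genes.

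Among the probe sets above background, those most above in replicate 2 were 1436384_at of Rps10 (6.31 and 6.59, a difference of 0.27), 1421837_at of Rps18 (6.02 and 6.18, 0.16) and 1421935_at of Rps20 (6.79 and 6.90, 0.11). Those most above in replicate 1 were 1438291_x_at of Rpl37 (11.19 and 11.09, -0.10), 1448398_s_at of Rpl22 (10.30 and 10.20, -0.094) and 1455572_x_at of Rps18 (14.04 and 13.95, -0.090). Rps18 stood on both sides, and its 2 brightest probe sets differed by 0.0045 and 0.018. The largest differences among all 103 were below the threshold, 0.39 for Rpl3l and 0.36 for Rps16, both higher in replicate 2.

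**Figure D4:**
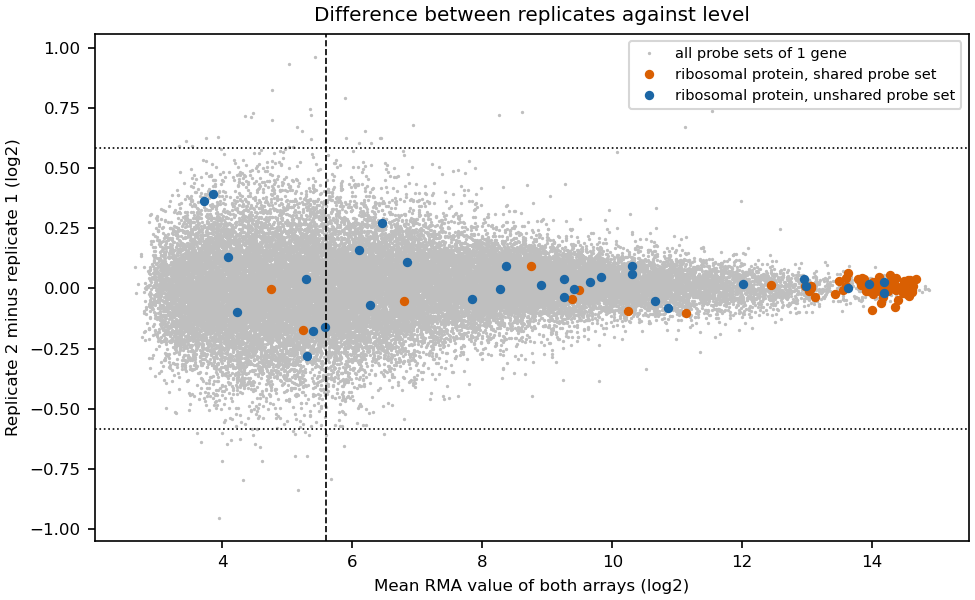
Replicate 2 minus replicate 1 (log2, vertical axis) against the mean of both arrays (log2, horizontal axis) for all single-symbol probe sets (grey) and for the ribosomal protein probe sets, shared (orange) and unshared (blue); dotted lines mark 1.5-fold and the dashed line the background threshold. No ribosomal protein probe set reaches a dotted line, and those at 13 or more lie between -0.090 and 0.065.

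Some components of the ribosome carry names that the rule does not reach. Rpsa, the laminin receptor protein of the small subunit, was at 14.63 on both arrays, and Fau, which encodes a small subunit protein fused to a ubiquitin-like domain, was at 13.73 and 13.70. Both were above background.

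Genes that make and use ribosomes were above background in every measured case. All 11 measured translation factors were, as were 14 of 14 ribosome assembly factors, 10 of 10 genes of RNA polymerase I and its cofactors and 6 of 6 regulators of pyrimidine tract mRNAs, against 68.4% of all genes. Of the translation factors, Eef2 was at 13.08 ± 0.010, Eef1a1 at 14.77 ± 0.0091, Eef1b2 at 14.18 ± 0.0086 and Eef1d at 12.66 ± 0.0017. In the assembly group, the rRNA methyltransferase gene Fbl was at 12.31 ± 0.0041, the nucleolar chaperone gene Npm1 at 14.31 ± 0.052, Ncl, which encodes nucleolin, at 13.49 ± 0.014 and Nop56 at 12.31 ± 0.032. The polymerase subunit genes Polr1a, Polr1b, Polr1c and Polr1d were at 9.09 ± 0.023, 9.03 ± 0.060, 11.13 ± 0.042 and 12.49 ± 0.043. Among the regulators, Larp1, which binds the tract itself, was at 10.86 ± 0.020, Mtor at 9.16 ± 0.026, Rptor at 8.83 ± 0.0028 and Tia1 at 9.60 ± 0.024. None of these 41 genes differed by 1.5-fold between the replicates.

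The RNA came from a mixed culture. All 8 ES cell markers and all 10 fibroblast markers were above background, with means from 9.76 to 14.09 and from 8.98 to 14.87. Of 5 measured blood cell markers 2 were above background, a smaller share than the 68.4% of all genes. Those were Cd3e, of T cells, at 6.58 and 6.55, and Csf1r, of macrophages, at 6.73 ± 0.19 (SD, n = 2), while Ptprc, the pan-leukocyte marker, was at 3.96 and 4.14, Itgam at 3.87 and 3.98 and Cd79a at 5.05 and 5.12. These few markers do not show whether blood cells were present. Ribosomal protein genes are active in ES cells and in fibroblasts, so the ribosomal protein values describe the whole culture. The cell type behind each transcript was not tested, and in such RNA fewer cells of a type and less RNA per cell cannot be told apart.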

How the data were processed

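Total RNA of 1 ES cell line was hybridised to 2 arrays. Per the submitters' processing notes, the authors' deposited log2 values were made with RMA, which subtracts background, quantile-normalizes and summarises probe sets; neither its version nor the set of arrays normalized together is recorded there. Quantile normalization hides a change shared by most genes. The precision is limited by the number of arrays. Columns left unused numbered 0.

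Symbols came from the platform annotation; identifiers of all 48 genes matched the reference gene table, and 0 symbols changed. Of 45101 probe sets, 34958 had 1 symbol, 932 several and 9211 none here. Values were read in Python 3.11.15 with pandas 2.3.3. The background and difference rules were tested on data with known answers. Differences were read over genes or probe sets above background on at least 1 array, with 1.5-fold as the size of interest. Alternatives were the median of all probe sets, unshared probe sets, the 99th percentile, other receptor genes, each array alone, loess (statsmodels 0.14.6, fraction 0.3), centring, 1 log2 unit and no filter.

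Named were all members of the role lists, every member probe set not above background, the genes with the most probe sets, the 3 most different probe sets in each direction, and the first 4 measured genes of each of the 4 pathway lists; Rpl38, Rps25, Rpl13a, Rpl41, Rps26, Rpl14, Rps29, single blood cell markers and the other genes named by range or start were chosen after their values were seen. The members and lists were chosen with earlier results of these data known. Protein sequences, planned for composition and for identity between paralogs, were not used here.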

Additional observations from a re-analysis of the deposited data

How the results depend on the processing

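Of 47 alternative values, 40 stayed within the limits set for them and 7 did not. The limit was 1.5 times the reported value for a count or share and a fixed distance for a threshold. For a median difference it was the SD of the differences over the 103 probe sets, 0.084. That is wide beside the reported median of 0.0079, so these medians could hardly move. When shared probe sets were left out, 22 of 25 genes and 26 of 32 probe sets were above a threshold of 5.30 made the same way, and 3 of 6 genes divided at it; the fall comes with fewer genes, and Rpl35 joined Rpl3l and Rps16 below it. Vomeronasal and taste receptor genes gave a threshold of 6.06 in place of 5.59, with 46 genes and 93 probe sets still above. With entries of several symbols included, which was chosen after seeing the data, 197 of 213 probe sets were above background. The share over all probe sets with a single symbol was 61.8%. Allowing the tract within 5 bases of the start raised its share from 16% to 42%, and over all entries from 2.51% to 18.3%. With each array alone, 46 genes, 93 to 94 probe sets and 6 to 7 divided genes were counted, and 69.2% to 69.3% of all genes were above background. The count of genes past 1.5-fold was 0 under loess, centring, the median of all probe sets, unshared probe sets and no filter; at 1 log2 unit it could only be 0 as well, which says nothing about stability. No paired analysis was possible because the study has no second group. Signal over background limits the only single-symbol probe set of Rpl39 and the dim probe sets of Rps6, Rps18, Rps10 and Rps20. They lie within 2 log2 units of the threshold, where weak and absent transcripts cannot be separated. Other probe sets naming these genes were brighter, up to 14.59 for Rpl39, 14.53 for Rps6, 14.31 for Rps18, 14.28 for Rps10 and 14.61 for Rps20. Those brightest entries of Rpl39 and Rps6 list other symbols as well.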
